A study of Mus musculus with 2 samples.

Results

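The genes described here are the 5 members of the miR-200 family (Mir200b, Mir200a, Mir429, Mir200c and Mir141), Mir203 and Mir205, microRNAs (miRNAs) known from epithelia. They were chosen by symbol in the GENCODE M21 annotation, and all 7 were found among the 2202 miRNA genes of the deposited count tables. Short RNA was sequenced from adrenal glands of male B6CASTF1/J mice, a cross of C57BL/6 and CAST/EiJ, at an age of 10 days. The only group held 2 libraries, which the labels number as biological replicates 1 and 2, take from males numbered differently and assign to 1 donor record. No treatment or allele is named, and whether glands were pooled is not stated. The comparisons are therefore between genes, between the 2 clusters of the miR-200 family and between the 2 libraries. None of the miRNAs looked at marks adrenal cells alone, so the labelled tissue was not checked.

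A miRNA is cut from a hairpin RNA as a short strand whose seed, bases 2 to 8, pairs with messenger RNAs. The miR-200 family is known for repressing Zeb1 and Zeb2, transcription factors that shut off E-cadherin in epithelial cells, and those factors in turn repress the miR-200 genes. miR-203 is known from differentiating keratinocytes of the skin, where it represses the stem cell factor Trp63, and miR-205 from basal cells of stratified and glandular epithelia. The steroid-producing cortex of the adrenal gland comes from mesoderm and its chromaffin medulla from the neural crest.

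The mature strands below are the arms best known as the working strand of each hairpin, shown because the seed splits the family across its clusters. They come from RefSeq on GRCm38.p6, where all 7 genes had an entry, and the capitals mark the seed.
miR-200b-3p: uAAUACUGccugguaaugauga
miR-429-3p: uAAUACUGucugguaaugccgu
miR-200c-3p: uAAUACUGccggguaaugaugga
miR-200a-3p: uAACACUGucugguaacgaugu
miR-141-3p: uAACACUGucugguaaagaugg
miR-203-3p: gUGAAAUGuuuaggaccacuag
miR-205-5p: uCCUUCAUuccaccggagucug
Mir200b, Mir429 and Mir200c share the seed AAUACUG, and Mir200a and Mir141 share AACACUG, which differs from it at 1 base. Each cluster holds both seeds. The closest relatives sit in different clusters: miR-200b-3p and miR-200c-3p differ at 2 of 22 positions, and so do miR-200a-3p and miR-141-3p, with 0 of these differences in the seed. The counts are per hairpin gene, so the arms cannot be told apart.

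By the annotation of mm10, Mir200b (ENSMUSG00000065549.3, chromosome 4 from 156055681 to 156055750), Mir200a (ENSMUSG00000065400.1, from 156054896 to 156054985) and Mir429 (ENSMUSG00000065427.1, from 156053905 to 156053987) lie in that order on the minus strand. Gaps of 695 and 908 bp part them. All lie within Ttll10, a protein-coding gene, and the noncoding Gm13648. Mir200b and Mir200a are intronic in both, while Mir429 overlaps an exon of Gm13648. The second cluster is on the minus strand of chromosome 6, with Mir200c (ENSMUSG00000065462.3, from 124718322 to 124718390) 336 bp before Mir141 (ENSMUSG00000065474.1, from 124717914 to 124717985). Both lie in introns of the noncoding Gm15884, and Mir141 also overlaps an exon of Gm29008. Mir203 (ENSMUSG00000065574.1) lies on the plus strand of chromosome 12 from 112130880 to 112130955 and in no annotated host gene. Mir205 (ENSMUSG00000065533.1), on the minus strand of chromosome 1 from 193507463 to 193507530, overlaps an exon of the lincRNA 4631405K08Rik.

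Reads on the gene's own strand were the counts used, and CPM is the count divided by all own-strand reads assigned to miRNA genes, times 1000000. These totals were 2843734 reads in replicate 1 and 3080062 in replicate 2. A read spans a whole mature miRNA, so levels were compared between genes without a length correction, and differences in how well each miRNA is ligated or mapped were not tested. A count of 0 would allow 1.05 CPM in replicate 1 and 0.974 CPM in replicate 2, taking 3 counts as the limit. Intervals are 95% Clopper-Pearson intervals and cover counting error only. Of the 2202 genes, 441 reached 1 CPM in both libraries, among them all 7 described here.

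Mir203 was the most abundant of the 7 in both libraries, and each miR-200 gene was well below it. Together the 7 genes held 0.127% ± 0.0071 (SD, n = 2) of the assigned reads, with 3757 reads in replicate 1 and 3762 in replicate 2. Mir203 had 3238 reads, or 1139 CPM (interval 1100 to 1179), in replicate 1. In replicate 2 it had 2537 reads, or 824 CPM (interval 792 to 856). Its mean of 981 ± 223 CPM (SD, n = 2) ranked 86 of the 2202 genes. By the same measure Mir200b ranked 207, Mir200c 220, Mir429 231, Mir205 261, Mir200a 296 and Mir141 335.

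Mir200b, which opens the chromosome 4 cluster, had 112 reads in replicate 1 and 495 in replicate 2, or 39.4 CPM (interval 32.4 to 47.4) and 161 CPM (interval 147 to 176). Its mean was 100.05 ± 85.8 CPM, an SD nearly as large as the mean. Mir429 had 123 and 263 reads, or 43.3 CPM (interval 35.9 to 51.6) and 85.4 CPM (interval 75.4 to 96.4). Mir200a, of the other seed, was the scarcest gene of this cluster in both libraries, with 24 and 53 reads. That is 8.44 CPM (interval 5.41 to 12.6) in replicate 1 and 17.2 CPM (interval 12.9 to 22.5) in replicate 2.

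In the chromosome 6 cluster Mir200c had 175 reads in replicate 1 and 278 in replicate 2, or 61.5 CPM (interval 52.8 to 71.4) and 90.3 CPM (interval 80.0 to 101.5). Mir141 had 20 reads in each library, or 7.03 CPM (interval 4.30 to 10.9) and 6.49 CPM (interval 3.97 to 10.0). It was the lowest of the 7 genes in both. Mir205 had 65 and 116 reads, or 22.9 CPM (interval 17.6 to 29.1) and 37.7 CPM (interval 31.1 to 45.2).

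By mean CPM the order was Mir203, Mir200b, Mir200c (75.9 ± 20.3 CPM), Mir429 (64.3 ± 29.8 CPM), Mir205 (30.3 ± 10.5 CPM), Mir200a (12.8 ± 6.2 CPM) and Mir141 (6.76 ± 0.38 CPM). The places of Mir200b, Mir200c and Mir429 were not fixed: Mir200c led them in replicate 1 and Mir200b in replicate 2. The SD of Mir200b exceeded its gap to each of the others, and the gap between the means of Mir200c and Mir429 was smaller than either SD. Mir200a and Mir141 had overlapping intervals in replicate 1 and separate ones in replicate 2. Mir203, Mir205 and the pair of scarcest genes kept their places in both libraries.

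**Figure D1:**
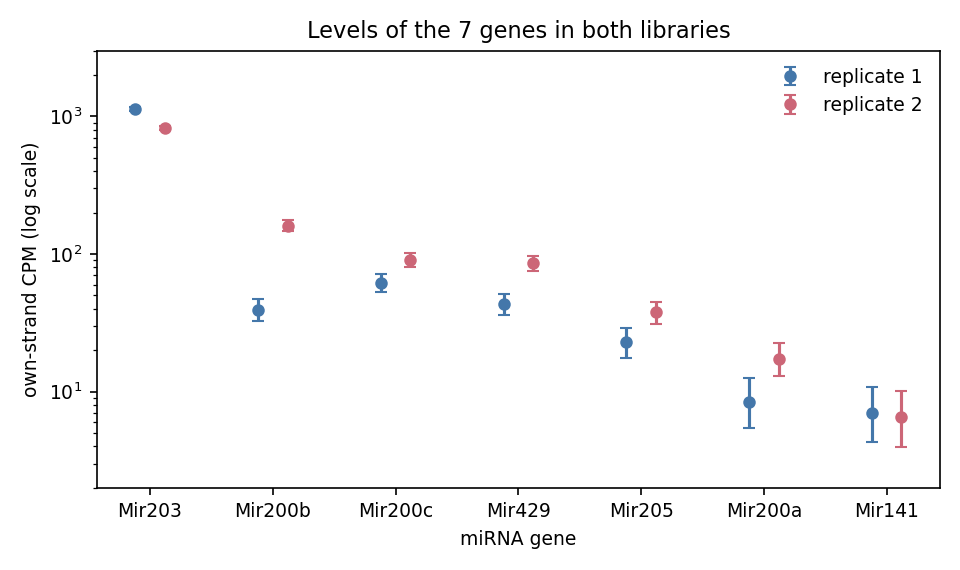
Own-strand CPM (vertical axis, log scale) of each of the 7 genes in replicate 1 (blue) and replicate 2 (red), ordered by mean CPM; bars are 95% Clopper-Pearson intervals for counting error. Mir203 sits near 1139 and 824 CPM, far above the others, Mir200b is at 39.4 CPM in replicate 1 and 161 CPM in replicate 2, and the Mir141 points nearly coincide.

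The chromosome 4 cluster gave more reads than the chromosome 6 cluster in both libraries, but how many more depended on the library. In replicate 1 the Mir200b-200a-429 genes had 259 of the family's 454 reads, or 57.0% (interval 52.4 to 61.7). In replicate 2 they had 811 of 1109 reads, or 73.1% (interval 70.4 to 75.7). The intervals do not overlap. As a ratio, the first cluster had 1.33 times (interval 1.10 to 1.61) the reads of the second in replicate 1 and 2.72 times (interval 2.38 to 3.12) in replicate 2. The mean log2 ratio was 0.93 ± 0.73 (SD, n = 2).

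The first cluster has 3 genes and the second 2. Per gene, the ratio was 0.885 (interval 0.732 to 1.07) in replicate 1, where the interval includes equal levels, and 1.81 (interval 1.59 to 2.08) in replicate 2. Between the close relatives, Mir200b had 0.640 times the reads of Mir200c in replicate 1 (interval 0.5003 to 0.816) and 1.78 times in replicate 2 (interval 1.53 to 2.07). The order of these 2 genes was thus opposite in the 2 libraries. Mir200a had 1.20 times the reads of Mir141 in replicate 1 (interval 0.635 to 2.29) and 2.65 times in replicate 2 (interval 1.56 to 4.68).

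Within the first cluster the share of Mir200b differed most between libraries. It held 43.2% of the cluster's reads in replicate 1 (interval 37.1 to 49.5) and 61.0% in replicate 2 (interval 57.6 to 64.4). Mir429 and Mir200a stood in a like proportion in both libraries, with overlapping intervals: 5.13 Mir429 reads per Mir200a read in replicate 1 (interval 3.29 to 8.30) and 4.96 in replicate 2 (interval 3.68 to 6.80). In the second cluster Mir200c held 89.7% (interval 84.6 to 93.6) and 93.3% (interval 89.8 to 95.9), and these intervals overlap.

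Genes with the seed AAUACUG (Mir200b, Mir429 and Mir200c) held nearly all reads of the family: 410 of 454, or 90.3% (interval 87.2 to 92.9), in replicate 1 and 1036 of 1109, or 93.4% (interval 91.8 to 94.8), in replicate 2. Mir200a and Mir141, with AACACUG, held the other 44 and 73 reads. The intervals of the libraries overlap, and the difference of these shares was not tested. In each cluster the gene with AACACUG was the scarcest.

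**Figure D2:**
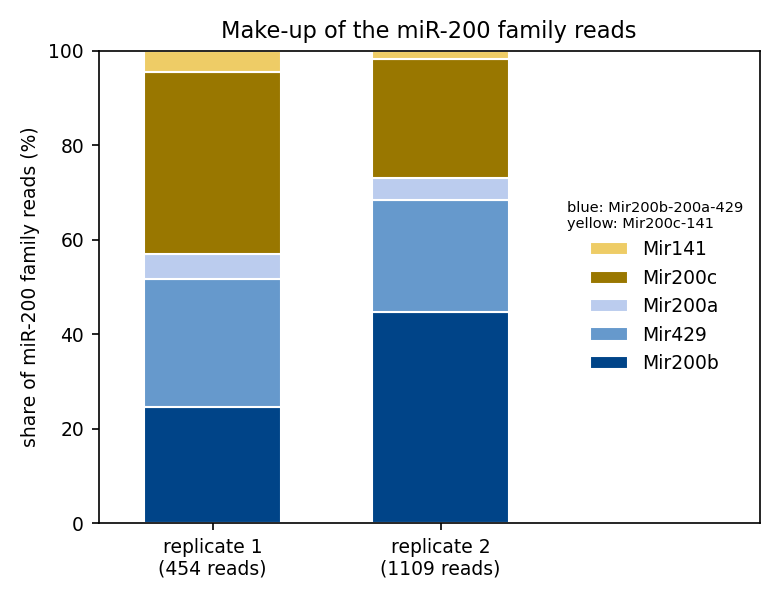
Share of the miR-200 family's own-strand reads (vertical axis, percent) held by each gene in replicate 1 (454 reads) and replicate 2 (1109 reads). The blue parts, the Mir200b-200a-429 cluster, take 57.0% in replicate 1 and 73.1% in replicate 2, and the part of Mir200b is larger in replicate 2.

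The libraries were then compared gene by gene. An exact binomial test, two-sided, set the counts against counting error alone, and p-values were adjusted by Benjamini-Hochberg over the 444 genes with at least 10 reads in both libraries together. The log2 ratios are of counts plus 0.5, replicate 2 over replicate 1. Over all tested genes 59.0% differed at an adjusted p under 0.05, with 28.6% higher in replicate 2 and 30.4% lower. Of the 7 genes 5 were higher in replicate 2, 1 was lower and 1 did not pass. Their median log2 ratio was 0.72, against 0.07 over all tested genes. Mir200b, Mir200a and Mir429 share a cluster, as do Mir200c and Mir141, so the 7 values are not independent. The share that differed rose with depth. With a minimum of 100 reads, 80.4% of 285 genes differed and 38.6% were higher in replicate 2. At that minimum 4 of the genes described here were higher and 1 lower. The test compares these 2 libraries and not conditions.

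All miR-200 genes but Mir141 were higher in replicate 2. Mir200b differed most, with a log2 ratio of 2.02 ± 0.15 (counting SE), a 4.07-fold difference with an adjusted p of 3.5e-51 in the exact binomial test. Its absolute ratio lay above that of 95.045% of all tested genes. Mir200a (1.01 ± 0.35, exact binomial adjusted p = 0.0059) and Mir429 (0.98 ± 0.16, adjusted p = 4.4e-10) were higher in replicate 2 by about the same amount. Mir200c was higher by 0.55 ± 0.14 (exact binomial adjusted p = 0.00014), near the median absolute ratio of 0.56 over all tested genes. Mir141 had a log2 ratio of -0.12 ± 0.45 and an adjusted p of 0.92 in the exact binomial test, with a 95% interval from -0.998 to 0.768 that includes the ratios of Mir200c and Mir205.

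The genes outside the family differed in opposite directions. Mir205 was higher in replicate 2 by 0.72 ± 0.22 (exact binomial adjusted p = 0.0027). Mir203 was lower there, with a log2 ratio of -0.47 ± 0.04 and an adjusted p of 6.7e-34 in the exact binomial test, though its absolute ratio exceeded that of only 42.6% of tested genes. Mir203 had 7.13 reads per miR-200 family read in replicate 1 (interval 6.46 to 7.89) and 2.29 in replicate 2 (interval 2.13 to 2.46). The sum of the 7 genes was 1321 CPM in replicate 1 and 1221 CPM in replicate 2. The miR-200 family alone summed to 160 CPM and 360 CPM.

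The biological coefficient of variation, the spread beyond counting error as edgeR's common dispersion gives it, was 0.393. At that spread, edgeR's exact negative binomial test passed none of the 7 genes, with adjusted p from 0.706 for Mir200b upward. Mir200b alone had an unadjusted p under 0.05 (0.019, exact negative binomial test), and 2 of all 444 genes passed. Since the spread came from the libraries being compared, that test passes few genes by its construction. In such bulk tissue, fewer cells of a type and less of the miRNA per cell cannot be told apart.

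**Figure D3:**
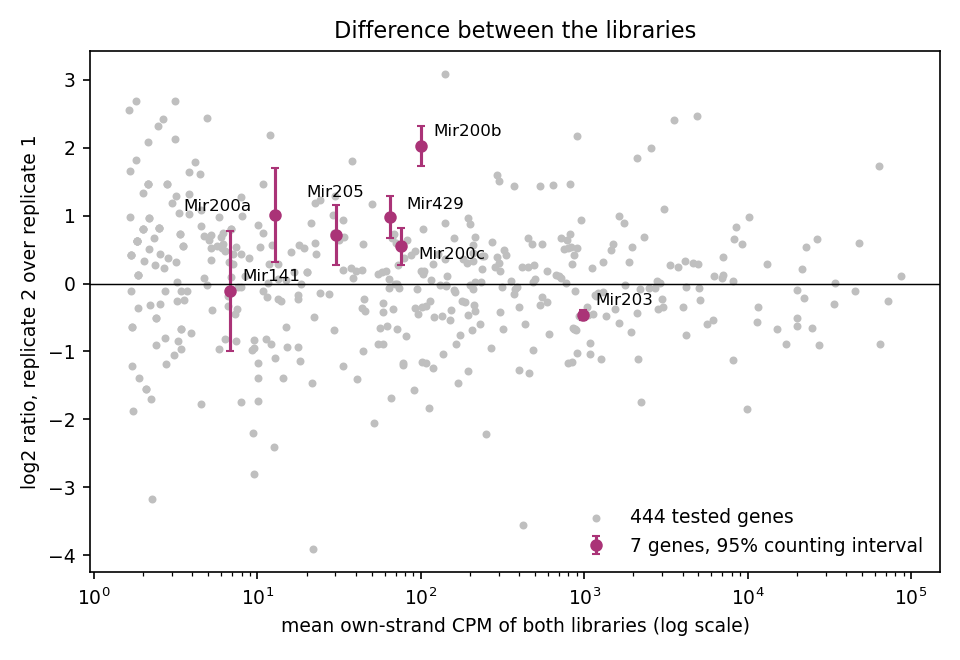
Log2 ratio of replicate 2 over replicate 1 (vertical axis) against mean own-strand CPM (horizontal axis, log scale) for all 444 tested genes (grey) and the 7 genes (purple, with 95% counting intervals). Mir200b at 2.02 is near the upper edge of the cloud, and the others lie within it, with Mir203 at -0.47 and Mir141 at -0.12.

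Neighbouring miRNAs can be cut from 1 primary transcript, so neighbours were compared across the table. Among tested genes, 454 pairs from 178 genes lay within 10000 bp on the same strand, and their log2 ratios differed by a median of 0.68 (quartiles 0.33 and 1.11). Mir429 and Mir200a differed by 0.03, less than all but 1.76% of pairs. The counting SEs of their log2 ratios, 0.16 for Mir429 and 0.35 for Mir200a, both exceeded that difference. Its place among the pairs is therefore uncertain. Mir200b differed by 1.05 from Mir429 and by 1.01 from Mir200a, more than 72.5% and 71.4% of pairs. Mir200c and Mir141 differed by 0.67, near the median, with a counting SE of 0.45 for Mir141. These pairs share libraries and many share a cluster, so the values are a description.

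Other lists of miRNAs from epithelia and neighbouring tissues did not all follow. Over all 444 tested genes 28.6% were higher in replicate 2 and 30.4% lower, and 80.4% differed with a minimum of 100 reads. The counts in each list are to be read against these shares. Of 11 other epithelial miRNAs 9 were tested, of which 2 were higher in replicate 2 and 6 lower, with a median log2 ratio of -1.02. Mir31, known from squamous epithelia, was higher by 2.17 (931 and 4546 reads), while Mir148a had -1.02. Mir182, of a cluster known from sensory epithelia, had -1.11 (4927 and 2477 reads). Its cluster mates went opposite ways, Mir183 at 0.42 (211 and 305 reads) and Mir96 at -1.74 (35 and 11 reads). Mir375, the most abundant of the list and also an endocrine miRNA, had 34145 CPM and 34383 CPM and did not pass. Of 8 miRNAs of kidney and gut epithelium 7 were tested. Mir194-2 (0.88) and Mir192 (0.44) were higher in replicate 2, Mir190a (-1.41) was lower and 4 did not pass. Summed, this list had 371 CPM and 481 CPM, and its member Mir204 had 48.9 CPM and 38.0 CPM.

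Markers of liver and muscle differed in the same direction as most miR-200 genes. Mir122, the hepatocyte miRNA, had 29424 CPM in replicate 1 and 97850 CPM in replicate 2 (log2 ratio 1.73). Of 9 striated muscle miRNAs 4 were tested and 3 were higher in replicate 2, led by Mir206 at 919 CPM and 3305 CPM, while Mir133a-2 had 0 reads. Summed levels of that list were 929 CPM and 3337 CPM, nearly all from Mir206, so they say little about its other genes. The pancreas list had 2.46 CPM and 2.92 CPM in all, with Mir217 at 5 and 9 reads. Mesenchymal miRNAs had 40869 CPM and 34515 CPM, with 2 of 8 tested higher, 4 lower and Mir199a-1 at 0. Mir143 had a log2 ratio of -0.31, Mir214 0.31 and Mir145a 0.50.

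Blood, vessel and nerve markers went several ways. Leukocyte miRNAs summed to 1044 CPM and 1547 CPM, with 2 of 4 higher, led by Mir150 (1.43). Red cell miRNAs summed to 720 CPM and 322 CPM, with Mir451a at -1.28 and Mir144 at -1.56, while Mir486 was higher (1.28). Mir126a of the endothelium was lower, at 84263 CPM and 45250 CPM. Neuronal miRNAs had 852 CPM and 504 CPM, mostly from Mir137 at 765 CPM and 457 CPM. The 3 tested, Mir137 and the gene copies Mir129-2 and Mir129-1, were all lower, against 30.4% of all tested genes. Of the 9 listed, 4 were at 0, among them Mir9-1 and Mir124a-1. Several of these miRNAs come from more than 1 gene, among them Mir194-2, Mir199a-1, Mir133a-2, Mir129-2, Mir129-1, Mir9-1 and Mir124a-1. Reads mapped to several places were assigned to none, so their counts are uncertain and a 0 there does not show absence. The part of any of these cell types in the differences of the miR-200 genes was not tested.

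Over both libraries, the gene of another locus closest to each of the 7 was found by the distance of log2(CPM + 1), a measure that over 2 libraries says only that levels are alike. Mir203 was closest to Mir29a, at a distance of 0.07, with 1112 CPM and 788 CPM. Mir200c was closest to Mir138-2 (0.15), Mir429 to Mir24-1 (0.25), Mir205 to Gm23450 (0.07), Mir200a to Mir325 (0.30) and Mir141 to Gm47302 (0.06). Mir200b had no close neighbour: the nearest was Mir26a-2 at 0.75, with 29.5 CPM and 251 CPM. Mir26a-2, Mir24-1 and Mir138-2 also have copies elsewhere, so their counts are uncertain.

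Mir203 also stood out by reads on its opposite strand. At that place RefSeq on GRCm38.p6 holds a second miRNA gene, Gm51289 or Mir203b, on the minus strand of chromosome 12, which has no row in the count tables. The mature strands of Mir203b together span 112130887 to 112130946. Its mature strands are shown beside the other arm of miR-203, since they are cut from the complementary strand, with seeds in capitals.
miR-203-5p: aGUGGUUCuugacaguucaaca
miR-203b-3p: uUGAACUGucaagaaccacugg
miR-203b-5p: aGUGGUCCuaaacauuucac
miR-203-5p and miR-203b-3p overlap at 20 positions and miR-203-3p and miR-203b-5p at 20, all complementary. The opposite-strand column gave Mir203 192 reads in replicate 1, or 5.60% of both strands (interval 4.85 to 6.42), and 130 in replicate 2, or 4.87% (interval 4.09 to 5.76). The intervals overlap.

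This was the highest opposite-strand count of the 2138 genes with no miRNA gene of the count tables on the other strand. Mir203 belongs to this set because Mir203b has no row there. Its opposite-strand count made up 76.8% of the 250 such reads in replicate 1 and 59.1% of the 220 in replicate 2. The next highest were Mirlet7b, with 11 reads in each library, and Mir708, with 5 and 12. Of 261 such genes with at least 100 own-strand reads in all, 2 had at least 1% of their reads on the opposite strand, Mir203 and Mir34b, the latter with 3 reads. Among the other 6 genes described here, Mir200a had 1 opposite-strand read and the rest had 0. Mir9-2, Mir3083 and Mir9-3 also lie opposite a miRNA gene that only RefSeq holds, and they had 0 opposite-strand reads in both libraries. Genes with a partner in the count tables were not compared.

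The count without strand adds both strands at Mir203, giving 3430 and 2667 reads. Mir200b, Mir429, Mir200c, Mir141 and Mir205 had identical counts in both of these columns, and those of Mir200a differed by 1 read. The reads are deposited as counts, so which mature strand of Mir203b the opposite-strand reads match was not tested.

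**Figure D4:**
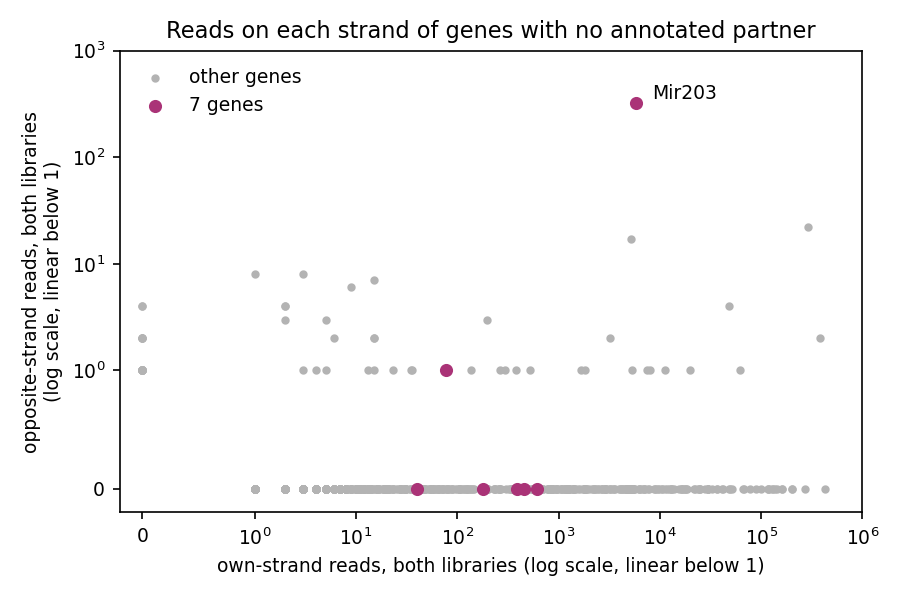
Opposite-strand reads (vertical axis) against own-strand reads (horizontal axis), both summed over the 2 libraries and on log scales that are linear below 1. Shown are genes with reads and no miRNA gene of the count tables on the other strand. Mir203 stands alone above 100 opposite-strand reads (192 and 130 by library), while the other 6 genes (purple) have 0 or 1.

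A read that fits several hairpins cannot be assigned to 1 gene. The longest run shared with any other of the 2202 hairpins was 17 bases, between Mir200a and Mir141, and 14 between Mir200b and Mir200c. For Mir429 it was 12, for Mir203 11 and for Mir205 14 bases, all shorter than a mature miRNA. Only exact runs among these hairpins were searched, so matches with differing bases or elsewhere in the genome were not tested. Multiply mapped reads, 27.5% and 25.9% of the 2 libraries, were assigned to no gene. How many of them came from the genes described here was not tested.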

How the data were processed

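Short RNA reads of 2 adrenal libraries were counted per miRNA gene by the authors. The deposited values are raw counts made on mm10 with GENCODE M21, per the file descriptions deposited with them; which aligner and counter made them is not given in the sources used here. The 3 columns were taken, from their values and totals, as counts for either strand, the strand of the gene and the other strand. The 4 rows that name no gene stayed out of totals: unmapped reads were 26.4% and 32.0%, multiply mapped 27.5% and 25.9% and reads outside genes 8.22% and 7.54% by own strand. Ambiguous reads were 0 by own strand and 7.93% and 5.77% in the column without strand, whose assigned totals are lower. All 2202 identifiers matched the annotation. Own-strand counts were the main values, and the assigned totals of 2843734 and 3080062 set the precision.

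With 1 group of 2 libraries, edgeR's quasi-likelihood test has no contrast, so an exact binomial test (two-sided) compared the libraries. Its p-values were adjusted by Benjamini-Hochberg over genes with at least 10 counts. The test was tried on simulated counts that held counting error only. That trial cannot show how the test behaves at the spread of these libraries. P-values measure the 2 libraries against counting error only. Named genes were the 7 described, the genes overlapping them, up to 3 members of each list by mean CPM and the nearest gene of another locus. Mir31, Mir183, Mir96, Mir190a, Mir133a-2, Mir199a-1, Mir9-1 and Mir124a-1 were named after their values were seen, as were those in the opposite-strand comparison. The genes and lists were chosen with earlier results of these data known. Alternatives were the count without strand, TMM and DESeq2 factors, Mir122 left out, other minimums and pseudocounts, single replicates and edgeR's exact negative binomial test. Statistics ran in Python 3.11.15 (scipy 1.17.1, pandas 2.3.3, numpy 2.4.6) and figures in matplotlib 3.10.9; edgeR 4.0.16 and DESeq2 1.42.0 ran in R 4.3.3.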

Additional observations from a re-analysis of the deposited data

Results flagged for a closer look

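Reads on the opposite strand of Mir203, which the own-strand counts leave out, lay above the limit of 3 counts that a count of 0 allows: 192 reads in replicate 1 and 130 in replicate 2. They lie over the RefSeq gene Mir203b, and their source was not tested.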

How the results depend on the processing

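Of 138 alternatives, 123 stayed within the spread between libraries, within 1.5 times for counts, or on the same side of the threshold. Direction was checked only for the log2 ratios of the 7 genes between libraries, where 0 turned. The negative binomial test keeps these ratios by construction. Values of single replicates stay within the spread by construction and show no stability. The summed level of the 7 genes was 1636 CPM without strand, where totals are lower and Mir203 includes both strands, and 1358 CPM with Mir122 left out of the totals, against 1271 CPM. By the exact negative binomial test of edgeR 0 genes were higher and 0 lower, against 5 and 1, with 1 at an unadjusted p under 0.05 (Mir200b). The log2 cluster ratio was 0.094 for Mir200b against Mir200c, against 0.93 for the sums, and it was 0.41 in replicate 1 alone and 1.44 in replicate 2 alone. Without Mir429, a gene of that seed, the seed AAUACUG held 89.0%, against 91.9%. With Mir122 left out 56.7% of all calls were higher in replicate 2, against 48.5%. Reads of Mir141 and Mir200a were too few to show changes below their intervals.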
